A study of Mus musculus with 4 samples.

Results

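The transcripts of 10 genes of pericentral zonation, meaning genes that hepatocytes around the central vein express or that respond to Wnt signals there, were compared between Brg1LKO livers and WT livers. The genes were Glul, Oat, Rhbg, Slc1a2, Lect2, Axin2, Tbx3, Lgr5, Rgn and Gulo. They were picked by name, and all 10 were found among the 22103 entries of the expression table. RNA of whole livers was sequenced for 2 WT and 2 Brg1LKO mice (labelled KO), each after 15 days of alcohol in the drink. Brg1LKO mice carry floxed Smarca4 and a Cre driven by the albumin promoter. Smarca4, which encodes the SWI/SNF ATPase Brg1, is thus deleted in hepatocytes, while liver cells that never expressed albumin keep the gene. The NIAAA procedure, an ethanol diet followed by an ethanol gavage, is described for male mice of 8 weeks. None of the 4 livers came from a mouse without alcohol, and the alleles that the WT mice carried are not given in the sources used here.

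The liver lobule is divided into zones along the blood flow, from the portal vein to the central vein, and hepatocytes of each zone express their own set of enzymes. Around the central vein, endothelial cells release Wnt ligands and R-spondin 3, and these stabilise beta-catenin in the neighbouring hepatocytes, where it acts with TCF/LEF factors on target genes. The hepatocytes next to the vein capture the ammonia that escaped the urea cycle upstream and fix it in glutamine, while much of the cytochrome P450 system that oxidises alcohol and drugs lies in the same zone. In RNA of a whole liver, fewer cells of a zone and less RNA in each of those cells cannot be told apart.

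Levels are given in FPKM, fragment numbers scaled to the length of the transcript and the size of the library, which allows genes of different length to be compared. All 10 genes passed the filter on low values, a mean of at least 0.1 FPKM over the 4 livers, which left 12346 genes for the test. Differences are log2 fold changes (Brg1LKO minus WT) of log2(FPKM + 0.1) with their standard errors from limma, and this scale understates the change of genes with low values. A gene was counted as past the threshold when its unadjusted p was under 0.05 and it differed by more than 2-fold. The totals estimated from the table were 80934600 and 79904300 reads in the WT livers and 78178000 and 72598500 reads in the Brg1LKO livers. Nothing in the labels says more than that the livers of a genotype are separate samples, so the p-values measure the spread between these samples. Exact permutation of 2 livers against 2 cannot give a two-sided p below 0.33.

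Smarca4 itself (chromosome 9, 21616169 to 21704230, plus strand, GRCm38) was measured first, as the check of the genotype. Its level was 1.78 and 1.95 FPKM in WT and 0.608 and 0.579 FPKM in Brg1LKO livers. The Brg1LKO livers thus held 31.8% of the WT mean, and Smarca4 fell by 1.50 on the log2 scale (SE 0.34, 95% interval -2.23 to -0.78, limma unadjusted p = 0.000548, Benjamini-Hochberg adjusted p = 0.9999). With a pseudocount of 1 the log2 fold change was -0.85, which is under 2-fold.

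None of the 10 pericentral genes passed the threshold in either direction. The most abundant of them, Glul, had a Brg1LKO mean at 62.8% of the WT mean, with an interval that reaches from a loss of over 2-fold to a slight gain. By group mean on the log2 scale, 8 of the 10 genes were lower and 2, Oat and Tbx3, were higher in the Brg1LKO livers. Over all genes tested, 0.98% passed the threshold (0.543% lower and 0.437% higher), 2.0% had an unadjusted p under 0.05 and 53.9% were lower by group mean. No pericentral gene had an unadjusted p under 0.05, and the adjusted p of each was 0.9999 (limma with Benjamini-Hochberg adjustment over all genes tested). The median log2 fold change of the 10 genes was -0.17, against -0.02 over all genes tested. These counts rested on single livers, since without WT replicate 2 there were 3 genes lower and 7 higher, with a median of 0.09 (0.12 over all genes tested), and without WT replicate 1 all 10 were lower, with a median of -0.51 (-0.17 over all genes tested). Without Brg1LKO replicate 1 there were 5 lower and 5 higher, and without Brg1LKO replicate 2 there were 9 lower and 1 higher.

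**Figure D1:**
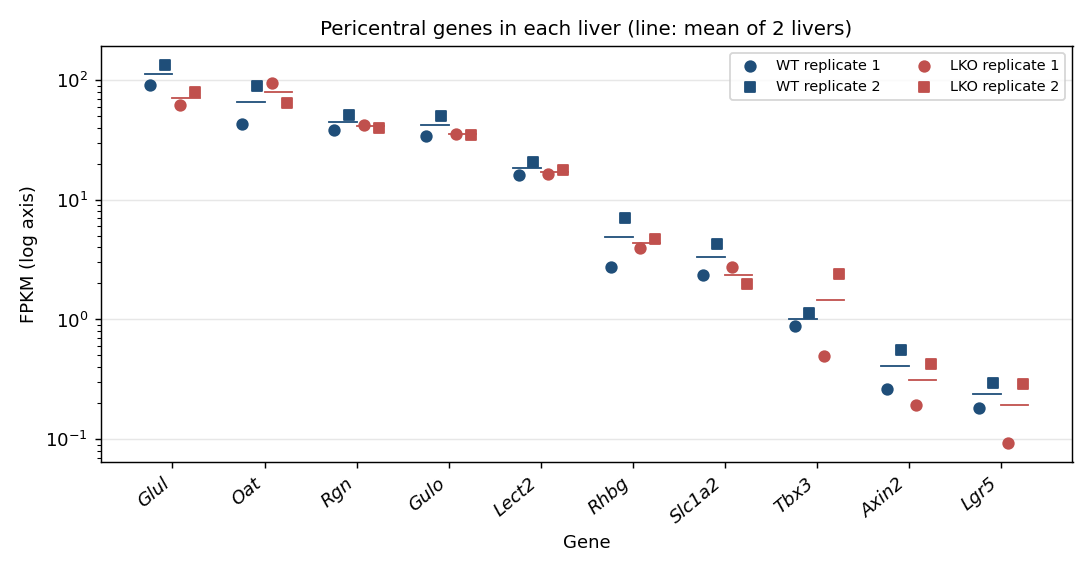
FPKM of the 10 pericentral genes in each of the 4 livers on a log axis, ordered by mean level, with short lines at the mean of the 2 livers of a genotype. Both Brg1LKO (LKO) livers lie below both WT livers for Glul alone, and WT replicate 2 is the highest liver for 8 of the 10 genes.

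The genes spanned a wide range of levels. The mean over the 4 livers was 92.0 FPKM for Glul, 72.6 for Oat, 43.1 for Rgn, 38.6 for Gulo and 17.7 for Lect2, and it was 4.60 for Rhbg, 2.83 for Slc1a2, 1.23 for Tbx3, 0.360 for Axin2 and 0.215 for Lgr5. In this order, the ranges of neighbouring genes over the livers overlapped except between Gulo and Lect2 and between Lect2 and Rhbg. Glul was above Oat in 3 of the 4 livers, the exception being Brg1LKO replicate 1, and Oat was above Rgn in all 4. Slc1a2 was above Tbx3 in 3 of the 4 livers, and Axin2 was above Lgr5 in all 4.

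The first group of genes handles glutamine, glutamate and ammonia. Glul encodes glutamine synthetase, which joins ammonia to glutamate and in the liver marks the hepatocytes lining the central vein. Its transcript (ENSMUST00000086199, chromosome 1, 153899944 to 153909723, plus strand, 7 exons) was measured at 91.7 and 134.5 FPKM in WT and at 62.6 and 79.4 FPKM in Brg1LKO livers, or 113 ± 30.3 against 71.0 ± 11.8 FPKM (SD, n = 2 each). Both Brg1LKO livers thus lay below both WT livers, and this was the only one of the 10 genes whose groups did not overlap. Over all genes tested, 10% had both Brg1LKO livers below both WT livers, 10.7% had both above and 20.7% had either. The log2 fold change of Glul was -0.65 (SE 0.34, 95% interval -1.38 to 0.07, limma unadjusted p = 0.0736), and each Glul value rested on an estimated 13670 to 30001 reads. When 1 liver was left out in turn the log2 fold change ranged from -0.93 without WT replicate 1 to -0.38 without WT replicate 2.

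Oat encodes the mitochondrial ornithine aminotransferase, which passes nitrogen of ornithine on toward glutamate. Its transcript (chromosome 7, 132557478 to 132576398, minus strand) was measured at 43.4 and 88.7 FPKM in WT and at 94.1 and 64.2 FPKM in Brg1LKO livers. WT replicate 1 was the lowest of the 4 livers and Brg1LKO replicate 1 the highest, and the groups overlapped. The log2 fold change was 0.33 (SE 0.39, 95% interval -0.50 to 1.16, limma unadjusted p = 0.414), and it went from -0.19 without WT replicate 1 to 0.84 without WT replicate 2.

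Rhbg encodes a Rhesus-type ammonium transporter of the hepatocyte membrane (chromosome 3, 88242874 to 88254709, minus strand). Its level was measured at 2.73 and 7.04 FPKM in WT and at 3.97 and 4.68 FPKM in Brg1LKO livers. Both Brg1LKO livers lay between the WT livers, which differed 2.58-fold from each other. Its log2 fold change was -0.03 (SE 0.42, 95% interval -0.93 to 0.87, limma unadjusted p = 0.949).

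Slc1a2 encodes a sodium-dependent glutamate transporter that supplies glutamate to the cells making glutamine (chromosome 2, 102658659 to 102790784, plus strand). It was measured at 2.36 and 4.25 FPKM in WT and at 2.74 and 1.99 FPKM in Brg1LKO livers. The highest liver was WT and the lowest was Brg1LKO, but WT replicate 1 lay between the Brg1LKO livers. The resulting log2 fold change was -0.43 (SE 0.38, 95% interval -1.23 to 0.38, limma unadjusted p = 0.275), and leaving out WT replicate 2 brought it to -0.02, or WT replicate 1 to -0.84.

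Glul and Oat, which take part in the same nitrogen metabolism, had group means that differed in opposite directions. Ratios of gene pairs were taken in FPKM within each liver, after the values were seen, as a description. Those with Glul as numerator all rest on the Glul values above, and 20.7% of single genes tested were separate in either direction. The ratio of Glul to Oat was 2.11 and 1.52 in WT and 0.665 and 1.24 in Brg1LKO livers, so that both WT livers were higher. Set against transcripts that mark other hepatocytes, Glul over Cps1, the carbamoyl phosphate synthetase of the periportal urea cycle, was 0.805 and 1.40 in WT and 0.428 and 0.564 in Brg1LKO livers. The ratio of Glul to Alb, the albumin transcript of hepatocytes in general, was 0.00734 and 0.0126 in WT and 0.00523 and 0.00638 in Brg1LKO livers. Both ratios were higher in both WT livers, and neither depends on the scaling between libraries. For Cps1 this followed from the single genes and adds nothing to the Glul values. Cps1 itself had both Brg1LKO livers above both WT livers, at 146 and 141 against 114 and 96.2 FPKM. Glul over Slc1a2 was 38.8 and 31.7 in WT and 22.9 and 39.9 in Brg1LKO livers, which overlapped. Glul over Rhbg was 33.6 and 19.1 in WT and 15.8 and 17.0 in Brg1LKO livers, with both WT livers higher. Axin2 over Lgr5 was 1.44 and 1.91 in WT and 2.06 and 1.47 in Brg1LKO livers, which overlapped.

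The second group holds direct targets and regulators of Wnt signalling. Axin2 encodes a scaffold of the complex that degrades beta-catenin and is itself switched on by beta-catenin, as a negative feedback (chromosome 11, 108920349 to 108950783, plus strand). Its transcript was found at 0.264 and 0.558 FPKM in WT and at 0.192 and 0.427 FPKM in Brg1LKO livers, from an estimated 64 to 190 reads. Replicate 1 was the lower liver in both genotypes, and the genotypes overlapped. The log2 fold change was -0.32 (SE 0.42, 95% interval -1.22 to 0.58, limma unadjusted p = 0.458).

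Lgr5, a receptor for R-spondins that protects Wnt receptors from removal, was the least abundant of the genes (chromosome 10, 115462673 to 115587759, minus strand). The entry carried a transcript that the annotation classes as a retained intron, so its level need not be that of the coding transcript. It was measured at 0.183 and 0.292 FPKM in WT and at 0.0934 and 0.290 FPKM in Brg1LKO livers, from an estimated 35 to 112 reads. The Brg1LKO livers differed 3.11-fold from each other, and Brg1LKO replicate 2 lay within the WT values. Its log2 fold change was -0.28 (SE 0.42, 95% interval -1.17 to 0.61, limma unadjusted p = 0.513).

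Tbx3 encodes a T-box transcription factor that beta-catenin induces in hepatocytes (chromosome 5, 119670669 to 119684561, plus strand). Its transcript was measured at 0.878 and 1.13 FPKM in WT and at 0.496 and 2.42 FPKM in Brg1LKO livers. The Brg1LKO livers, 4.88-fold apart, held both the lowest and the highest value. The resulting log2 fold change was 0.16 (SE 0.52, 95% interval -0.96 to 1.28, limma unadjusted p = 0.764). A single liver decided the direction of this gene. Without Brg1LKO replicate 1 the log2 fold change was 1.20, which passed the threshold (limma unadjusted p = 0.00142, adjusted p = 0.0612), and without Brg1LKO replicate 2 it was -0.88.

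Lect2 encodes a protein that hepatocytes secrete and was described in the liver as a target of beta-catenin (chromosome 13, 56542464 to 56548502, minus strand). Its level was measured at 16.1 and 20.7 FPKM in WT and at 16.3 and 17.7 FPKM in Brg1LKO livers, so that both Brg1LKO livers lay between the WT livers. The log2 fold change was -0.10 (SE 0.33, 95% interval -0.81 to 0.61, limma unadjusted p = 0.764).

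The forms CTTTGAT and CTTTGAA of the TCF/LEF site were searched on both strands of the 250 bases before the RefSeq start (GRCm38.p6). This site was chosen because Wnt targets are reached through TCF/LEF factors, and other forms of it were not searched. The promoter table matched 5 of the 10 genes, namely Glul, Oat, Slc1a2, Lect2 and Axin2. A match was found in the windows of Lect2 and Slc1a2, one in each, and none of these letters stood in the windows of Glul, Oat and Axin2. For comparison, 7.5% of 32851 windows held a match, and 5.4% of those of the genes tested did. The Lect2 match lay 32 to 26 bases before the start (chr13:56548553-56548581, minus strand) and that of Slc1a2 207 to 201 bases before (chr2:102706220-102706248, plus strand), and both are shown because they are the places in these windows that carry the motif, here in capitals as its reverse complement.
Lect2: tgcttctccagATCAAAGgctttggccgg
Slc1a2: agaagagggacATCAAAGgccccaaatgg
The RefSeq start of Slc1a2 lies 47779 bases from the start of the transcript listed in the expression table. A match of letters is a description of the window and not a site shown to be bound, and the genotypes overlapped for both genes.

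The third group is a pair of neighbouring steps of vitamin C synthesis, a pathway that mouse hepatocytes use. Rgn encodes regucalcin, a gluconolactonase that forms the lactone used by the next enzyme (chromosome X, 20549787 to 20562089, plus strand). It was measured at 38.5 and 51.7 FPKM in WT and at 42.5 and 39.7 FPKM in Brg1LKO livers, and the log2 fold change was -0.12 (SE 0.33, 95% interval -0.83 to 0.59, limma unadjusted p = 0.727). Gulo encodes L-gulonolactone oxidase, the last enzyme of the pathway (chromosome 14, 65986786 to 66009207, minus strand). Its transcript was found at 34.2 and 49.9 FPKM in WT and at 35.5 and 34.9 FPKM in Brg1LKO livers, and the log2 fold change was -0.23 (SE 0.34, 95% interval -0.95 to 0.49, limma unadjusted p = 0.503). Both genes had their Brg1LKO livers close together, 1.07-fold and 1.02-fold apart, and between the WT livers. The ratio of Gulo to Rgn was 0.889 and 0.966 in WT and 0.834 and 0.879 in Brg1LKO livers, a range of 0.834 to 0.966 over the 4 livers in which both WT values were the higher ones. This ratio too was taken after the values were seen, and the share of all gene pairs that separate was not computed.

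**Figure D2:**
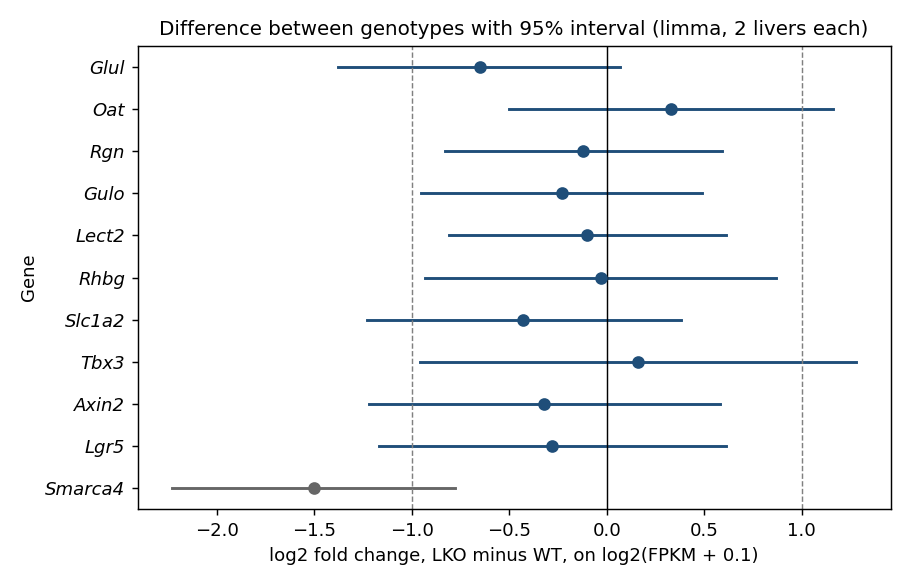
Log2 fold change (Brg1LKO minus WT, on log2(FPKM + 0.1)) with its 95% interval from limma for the 10 pericentral genes and, in grey, for Smarca4, from 2 livers of each genotype. Dashed lines mark a 2-fold change. All 10 intervals of the pericentral genes include 0, and that of Smarca4 does not.

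The intervals set what these livers could show. The interval of Glul reached from -1.38, a loss of over 2-fold, to 0.07, a slight gain. These bounds hold for the fit of all livers, and the log2 fold change was -0.38 without WT replicate 2. For Rhbg, Lect2, Rgn and Gulo both bounds were within a 2-fold change in either direction. For Oat and Tbx3 the upper bound exceeded a 2-fold gain, and for Slc1a2, Axin2 and Lgr5 the lower bound exceeded a 2-fold loss. A p that missed the threshold therefore does not show equal levels.

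The livers of one genotype often differed more than the genotypes did. The WT livers were further apart than the genotype means in 9 of the 10 pericentral genes, with Glul as the exception, and the Brg1LKO livers were in 7 of the 10. Over all genes tested these shares were 67.8% and 75.1%. The median distance on the log2 scale over the 10 genes was 0.55 between the WT livers, 0.39 between the Brg1LKO livers and 0.26 between the genotype means. Over all genes tested the same medians were 0.31, 0.40 and 0.17.

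WT replicate 2 stood out among the livers. It had the highest level of all 4 livers for 8 of the 10 genes, the exceptions being Oat and Tbx3, and lay above the mean of the 4 livers for all 10. Of all genes tested, 42.1% were highest in that liver. The median of the 10 genes, each centred on its mean over the 4 livers in log2, was -0.18 and 0.38 in WT and -0.12 and -0.05 in Brg1LKO livers. Over all genes tested it was -0.13, 0.15, -0.16 and 0.13 in the same order, so replicate 2 of both genotypes was above replicate 1 across the table. WT replicate 1 was the lowest liver for 5 of the 10 genes (31.5% of all genes tested) and Brg1LKO replicate 1 for 4 (46.6%).

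**Figure D3:**
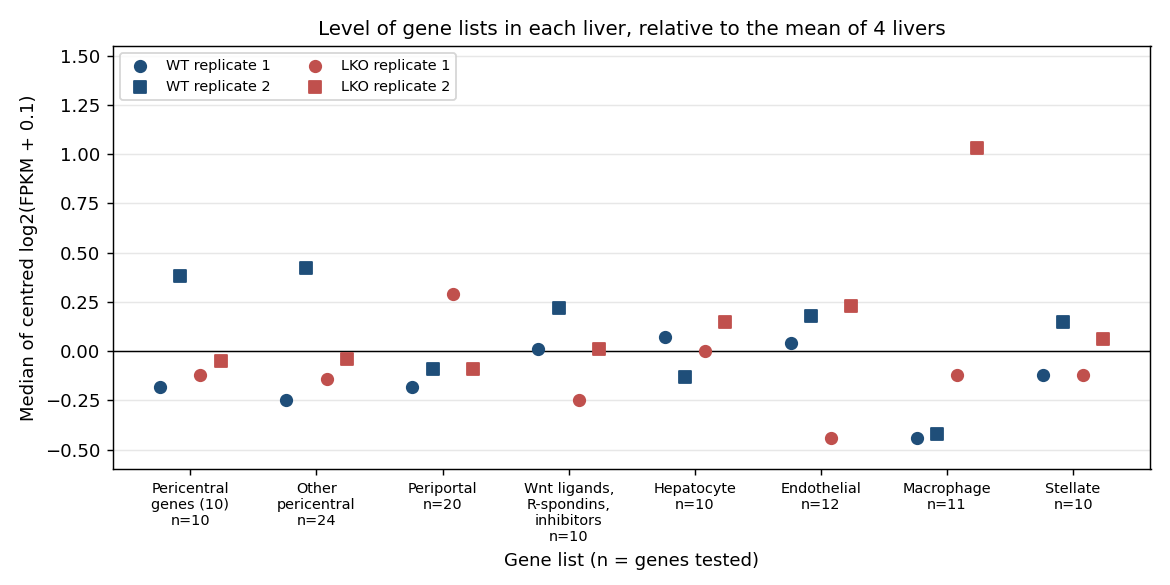
Median over the genes tested in each list of log2(FPKM + 0.1), centred for each gene on its mean over the 4 livers, with 1 point for each liver. The pericentral genes are highest in WT replicate 2 at 0.38, the periportal genes are highest in Brg1LKO replicate 1 at 0.29, and the macrophage markers are highest in Brg1LKO replicate 2 at 1.03.

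Other pericentral hepatocyte genes gave a like picture. Of 24 such genes, all tested, 0 rose and 1 fell past the threshold, 17 were lower and 7 higher by group mean, and the median log2 fold change was -0.15. In 15 of the 24 the highest liver was WT replicate 2. Of all genes tested, 0.543% fell past the threshold, 53.9% were lower by group mean and 42.1% were highest in that liver. The gene past the threshold was Slc22a3, an organic cation transporter, at 0.840 and 1.13 FPKM in WT and at 0.395 and 0.378 FPKM in Brg1LKO livers, with a log2 fold change of -1.15 (SE 0.35, limma unadjusted p = 0.00552, adjusted p = 0.9999), and it was not past the threshold with a pseudocount of 1 (-0.51) or without WT replicate 2 (-0.95). Both Brg1LKO livers were below both WT livers for 3 of the genes, namely Slc22a3, Slc13a3 and Avpr1a, and above for 1, Ahr. The last 3 are named after their values were seen. The shares of all genes tested were 10% below and 10.7% above. Avpr1a, a vasopressin receptor of hepatocytes, was at 4.26 and 5.55 FPKM in WT and at 2.25 and 3.59 FPKM in Brg1LKO livers (log2 fold change -0.75). The most abundant gene, Gstm1, a glutathione transferase, was at 694 and 1766 FPKM in WT and at 1655 and 1264 FPKM in Brg1LKO livers (log2 fold change 0.39), the same order of livers as for Oat except at the top. Without WT replicate 2 its log2 fold change was 1.06, past the threshold, and without WT replicate 1 it was -0.29.

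Periportal hepatocyte genes, which mark the opposite end of the lobule, had group means that mostly differed the other way. Of 20 genes, 0 rose and 1 fell past the threshold, 16 were higher and 4 lower by group mean, and the median log2 fold change was 0.29. Both Brg1LKO livers were above both WT livers in 7 of them, among which were Ass1, Aldh1b1 and, named after their values were seen, the urea cycle genes Cps1, Asl and Otc. Over all genes tested, 0.543% fell past the threshold, 53.9% were lower by group mean and 10.7% had both above. The list was highest in Brg1LKO replicate 1, with centred medians of -0.18 and -0.09 in WT and 0.29 and -0.09 in Brg1LKO livers, so that Brg1LKO replicate 2 was level with WT replicate 2. WT replicate 2 was the highest liver for 3 of the 20 genes. The most abundant, Ass1, the argininosuccinate synthetase of the urea cycle, was at 349.9 and 368 FPKM in WT and at 501 and 427 FPKM in Brg1LKO livers, with a log2 fold change of 0.36 (SE 0.31, 95% interval -0.30 to 1.03). Aldh1b1, a mitochondrial aldehyde dehydrogenase, had the largest positive log2 fold change of the list, 0.64, at 3.28 and 3.57 against 5.92 and 4.87 FPKM. The gene that fell was Cyp17a1, a steroid hydroxylase, at 3.56 and 2.48 FPKM in WT and at 0.324 and 0.858 FPKM in Brg1LKO livers (log2 fold change -2.27, limma unadjusted p = 8.305e-05, adjusted p = 0.541).

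The contrast between both ends of the lobule was taken within each liver, as the centred median of the 10 pericentral genes minus that of the periportal genes. It was 0.01 and 0.47 in WT and -0.41 and 0.04 in Brg1LKO livers. WT replicate 1 lay between the Brg1LKO livers and almost level with Brg1LKO replicate 2, and the genotype means differed by -0.42, against a within-group SD of 0.32. This contrast was given no test. It ran from -0.29 to -0.47 over the pseudocounts and scalings tried.

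Upstream of these genes, 0 of 10 tested genes among Wnt ligands, R-spondins and secreted inhibitors rose and 0 fell past the threshold, and 8 were lower and 2 higher by group mean, with a median log2 fold change of -0.29. Over all genes tested, 0.98% passed the threshold, 53.9% were lower by group mean and the median was -0.02. A further 13 genes of the Wnt ligand list of 23 were under the filter, of which 3 were at 0 in all 4 livers. Wnt2, a ligand made by central vein and sinusoidal endothelium, was at 0.888 and 2.03 FPKM in WT and at 0.709 and 1.06 FPKM in Brg1LKO livers, which overlapped (log2 fold change -0.58, SE 0.41, limma unadjusted p = 0.178). It was -0.03 without WT replicate 2, the high liver, and -1.13 without WT replicate 1. Wnt9b, the other main endothelial ligand, was at 0.394 and 0.457 FPKM in WT and at 0.311 and 0.0945 FPKM in Brg1LKO livers. Its groups were separate, Brg1LKO replicate 2 was the low liver with an estimated 31 reads, and its log2 fold change of -0.89 (SE 0.41, limma unadjusted p = 0.0471) stayed under 2-fold. This value depended on that liver, since it was -0.35 without Brg1LKO replicate 2 and -1.43, past the threshold, without Brg1LKO replicate 1. It was also past the threshold with a pseudocount of 0.01 (-1.24) and with voom on estimated reads (-1.26), while the unadjusted limma p was 0.0871 without the filter, 0.116 with median-ratio rescaling and 0.147 with quantile normalization.

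Rspo3, the R-spondin of the central vein that enhances Wnt signals through Lgr receptors, was at 1.50 and 1.51 FPKM in WT and at 1.25 and 0.834 FPKM in Brg1LKO livers (log2 fold change -0.51, SE 0.35, limma unadjusted p = 0.163), and the value was -0.25 without Brg1LKO replicate 2 and -0.78 without Brg1LKO replicate 1. Notum, an enzyme that inactivates Wnt ligands and is itself a Wnt target, was the most abundant of the list. It was at 11.3 and 17.0 FPKM in WT and at 7.03 and 10.03 FPKM in Brg1LKO livers, with separate groups and a log2 fold change of -0.72 (SE 0.36, 95% interval -1.48 to 0.05, limma unadjusted p = 0.0660). Leaving out 1 liver gave -1.01, past the threshold, without WT replicate 1, -0.42 without WT replicate 2, -0.46 without Brg1LKO replicate 1 and -0.97 without Brg1LKO replicate 2. Wnt5a, at 0.252 and 0.259 against 0.217 and 0.210 FPKM, was the fourth of the 10 tested genes with both Brg1LKO livers below both WT livers. It is named after its values were seen. Frzb, a secreted Wnt antagonist, was the only tested gene of the list with both above, at 0.0942 and 0.195 against 0.236 and 0.280 FPKM (log2 fold change 0.58). The shares of all genes tested were 10% with both below and 10.7% with both above.

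**Figure D4:**
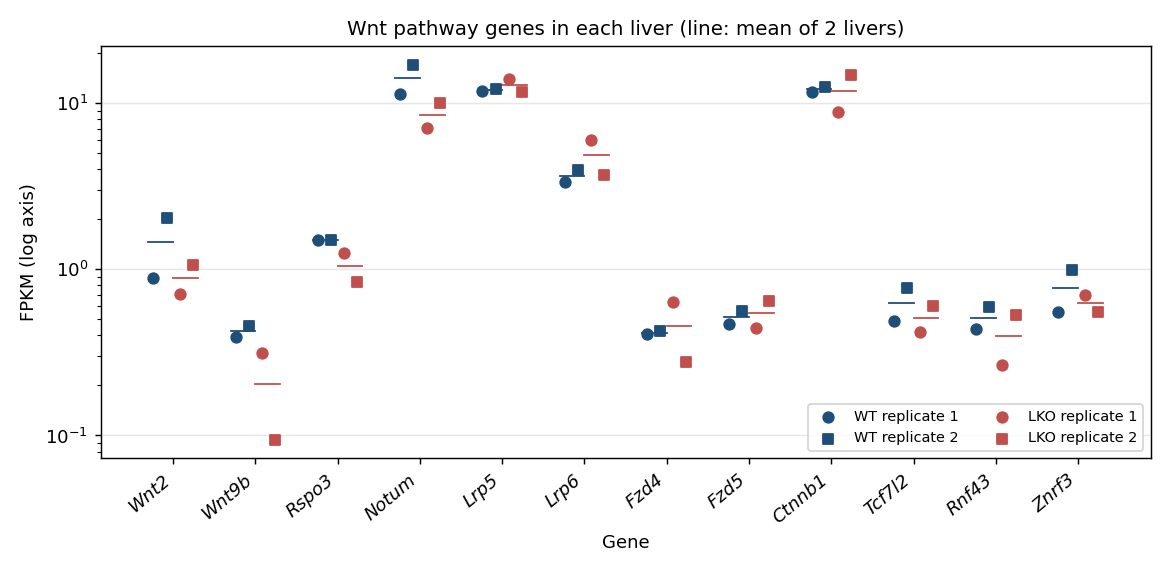
FPKM of 12 genes of Wnt ligands, inhibitors, receptors and pathway components in each of the 4 livers on a log axis, with short lines at the mean of the 2 livers of a genotype. Both Brg1LKO (LKO) livers lie below both WT livers for Wnt9b, Rspo3 and Notum, and the livers overlap for the others shown.

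Of the Wnt receptors and co-receptors, 0 of 14 tested rose and 0 fell past the threshold, and the median log2 fold change was 0.03. The co-receptor Lrp5 was the most abundant at 11.8 and 12.1 FPKM in WT and 14.0 and 11.7 FPKM in Brg1LKO livers (log2 fold change 0.10), under an entry whose transcript the annotation classes as subject to nonsense-mediated decay. Lrp6, the other co-receptor, was at 3.36 and 3.93 against 6.01 and 3.69 FPKM, the largest positive log2 fold change of the list at 0.37. Among the Frizzled receptors tested, the mean over the livers was 0.561 FPKM for Fzd1, 0.435 for Fzd4, 0.528 for Fzd5, 0.207 for Fzd6, 0.515 for Fzd7 and 0.327 for Fzd8. Their log2 fold changes were 0.27 for Fzd1, 0.03 for Fzd4, 0.05 for Fzd5, -0.06 for Fzd6, -0.42 for Fzd7 and -0.01 for Fzd8. Fzd7 and Porcn, the acyltransferase that Wnt secretion needs, were the 2 genes of the list with both Brg1LKO livers below both WT livers. Of all genes tested, 10% were so placed, and Porcn is named after its values were seen.

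Inside the cell, 0 of 23 tested genes of the beta-catenin pathway rose and 0 fell past the threshold, with 12 lower, 11 higher and a median log2 fold change of -0.03. Ctnnb1, which encodes beta-catenin, was at 11.7 and 12.5 FPKM in WT and at 8.80 and 14.7 FPKM in Brg1LKO livers, with the WT livers between the Brg1LKO livers (log2 fold change -0.08, SE 0.36, 95% interval -0.85 to 0.68). Tcf7l2, the main TCF factor of hepatocytes, was at 0.491 and 0.770 against 0.419 and 0.601 FPKM (log2 fold change -0.25). Dvl2, which relays the signal from the receptors, was the most abundant at 19.7 and 25.1 against 20.02 and 22.1 FPKM (log2 fold change -0.08). The annotation classes the transcript of this Dvl2 entry as subject to nonsense-mediated decay, so its level need not be that of the coding transcript. The lowest log2 fold change was that of the TCF factor Tcf7, -0.60, at 1.18 and 1.12 against 0.559 and 0.936 FPKM, and the highest that of Tnks, a tankyrase that marks axin for degradation, 0.61, at 0.606 and 0.538 against 1.01 and 0.853 FPKM.

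Among the other Wnt target and feedback genes, 1 of 13 tested rose and 0 fell past the threshold. By group mean 12 were lower and 1 was higher, and the median log2 fold change was -0.30. WT replicate 2 was the highest liver for 8 of the 13. Of all genes tested, 0.437% rose past the threshold, 53.9% were lower by group mean and 42.1% were highest in that liver. The median over all genes tested was -0.02. Some genes of this list, such as Notum, Tcf7 and Cyp2e1, are also in the lists above. The gene that rose was Cd44, a surface receptor for hyaluronan that leukocytes also carry. It was at 0.737 and 0.582 FPKM in WT and at 0.957 and 2.58 FPKM in Brg1LKO livers (log2 fold change 1.15, SE 0.43, limma unadjusted p = 0.0170, adjusted p = 0.9999). It was not past the threshold without WT replicate 1 (1.30), WT replicate 2 (1.01) or Brg1LKO replicate 2 (0.48), with a pseudocount of 1 (0.67) or without the filter.

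Rnf43 and Znrf3 encode ubiquitin ligases that remove Frizzled receptors as a feedback. Rnf43 was at 0.436 and 0.589 against 0.264 and 0.531 FPKM (log2 fold change -0.34), and Znrf3 was at 0.552 and 0.986 against 0.703 and 0.550 FPKM (log2 fold change -0.22). Cyp2e1, the cytochrome P450 that oxidises ethanol, was at 455 and 673 FPKM in WT and at 478 and 620 FPKM in Brg1LKO livers, so that replicate 2 was the higher liver of both genotypes and the log2 fold change was -0.02. Sox9 had the lowest log2 fold change of the list, -0.84, at 1.16 and 0.675 against 0.244 and 0.780 FPKM, which overlapped. The value depended on Brg1LKO replicate 1 and was -0.17 without that liver and -1.52, past the threshold, without Brg1LKO replicate 2. Sox9 is also a marker of bile duct cells.

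Markers of the cell types of the liver were summed in FPKM for each liver, in the order WT replicates 1 and 2 and Brg1LKO replicates 1 and 2. All 10 hepatocyte markers were well detected, with sums of 39169, 30601, 33680 and 37975 FPKM, and WT replicate 2, where the pericentral genes were highest, had the lowest sum. Hnf4a, a defining transcription factor of hepatocytes, was at 48.9 to 61.9 FPKM. The 12 markers of sinusoidal endothelium, the source of Wnt ligands, summed to 43.4, 46.2, 33.9 and 45.0 FPKM, lowest in Brg1LKO replicate 1, and 0 of 12 passed the threshold. Of these 12 markers, 10 were lower and 2 higher by group mean, with a median log2 fold change of -0.20. Both Brg1LKO livers were below both WT livers for 2 of the 12. Over all genes tested, 53.9% were lower by group mean, 10% had both below and the median was -0.02. The Wnt ligand, R-spondin and inhibitor list summed to 16.9, 25.1, 12.8 and 15.8 FPKM, of which Notum was the larger share in every liver, and without Notum it summed to 5.66, 8.04, 5.78 and 5.78 FPKM. Wnt9b and Rspo3 were lowest in Brg1LKO replicate 2 and Wnt2 in Brg1LKO replicate 1. The part of the endothelial level in the values of Wnt2, Wnt9b and Rspo3 was not tested.

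The 11 macrophage markers summed to 48.8, 49.9, 63.2 and 139 FPKM, and all 11 were higher in the Brg1LKO livers by group mean. Both Brg1LKO livers were above both WT livers for 9 of them. Over all genes tested, 53.9% were lower by group mean, 10.7% had both Brg1LKO livers above and 0.437% rose past the threshold. Of the markers, 3 passed the threshold, namely Cd68, Cd5l and Vsig4, with log2 fold changes of 1.47, 1.21 and 1.00. Cd5l was not past it under 5 of the 13 alternatives, among them without WT replicate 1 (1.06) and without Brg1LKO replicate 2 (0.25). Vsig4 was not past it under 10 of the 13, among them without WT replicate 1 (0.90), WT replicate 2 (1.10) and Brg1LKO replicate 2 (0.15). Brg1LKO replicate 2, the highest liver for these markers, was also the highest for Tbx3 and Cd44, as it was for 41.0% of all genes tested, and the part of the macrophage markers in those values was not tested. The 9 neutrophil markers summed to 11.7, 4.46, 16.7 and 8.21 FPKM, with Ly6g, Camp and Ltf under the filter. The 10 stellate cell markers summed to 28.9, 37.4, 28.3 and 36.7 FPKM and the 9 cholangiocyte markers to 18.6, 19.9, 15.3 and 19.6 FPKM, with Krt7, Cftr and Tspan8 of the latter under the filter. No marker of these lists was at 0 in all 4 livers.

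The genes whose pattern over the 4 livers was most like that of Glul were C130074G19Rik, Mtfp1 and Psmd5. Likeness was the root mean square distance of the centred log2 values, among 1025 genes that averaged 1 FPKM or more and had a range at least that of Glul, and these distances were 0.010, 0.043 and 0.050. C130074G19Rik, at 16.5 and 24.7 FPKM in WT and 11.4 and 14.4 FPKM in Brg1LKO livers, followed Glul in each liver. With 4 livers, many genes of a large table come close to any given pattern. The other 9 pericentral genes were at distances from 0.248 for Gulo to 0.741 for Tbx3. Those 3 genes were picked as the closest of the 1025, so the larger distances of genes named beforehand say little. Slc1a2, Lect2, Axin2, Lgr5, Rgn and Gulo were not among the 1025, because they averaged under 1 FPKM or had a narrower range than Glul.

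Some of the 10 genes overlap others in the GENCODE M21 annotation, and no source used here says whether the FPKM values were calculated by strand. The published methods name a stranded TruSeq kit and the labels a BGIseq protocol. Teddm2 overlaps Glul on the opposite strand, and antisense genes lie over Slc1a2 (Gm13872), Axin2 (Gm11670) and Tbx3 (Tbx3os1). A930009A15Rik lies opposite Lgr5. On the same strand, Fgfr2 overlaps Oat, Gm38392 overlaps Rhbg and the microRNA gene Mir8114 lies in Glul. Whether reads of such partners entered the values of the 10 genes was not tested.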

How the data were processed

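RNA-seq of whole liver from 2 WT and 2 Brg1LKO mice was analysed, with genotype and replicate taken from the sample labels. The authors deposited FPKM values, 1 per entry and liver, on GRCm38. The submitters' processing notes name HISAT2 2.0.4 and StringTie 2.1.4, while the published methods name Trimmomatic, HISAT2 and Cufflinks for FPKM and DESeq on HTSeq counts, which were not used here. FPKM is relative to the total of a library, so a few abundant genes can shift the others. The labels name a BGIseq library protocol and the methods an Illumina one, and which made these values is not settled here.

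Transcript lengths and positions came from GENCODE M21 (98.6% of entries). Symbols turned into dates were restored for 27 entries, 50 entries shared a symbol, and 2 list genes stood under older symbols. Library totals were estimated from low values of transcripts of at least 2000 bases. Low values, those worth 20 reads or fewer, came within 0.1 of a whole number in 88.4% to 89.5% of cases, so reads of single genes are estimates and cover counting error only.

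Genes averaging 0.1 FPKM or more entered a limma 3.58.1 fit (R 4.3.3) of log2(FPKM + 0.1) on genotype, by lmFit and by eBayes with a trend, with Benjamini-Hochberg adjustment over all 12346 genes, and the procedure was tested on simulated data. Other values used Python 3.11.15, pandas 2.3.3 and numpy 2.4.6. Promoters were RefSeq windows of GRCm38.p6. The 10 genes, the gene lists and the tests were chosen with earlier results of these data known. Named were all 10 genes, Smarca4, key Wnt genes fixed by name and, of each list, the genes past the threshold, the most abundant and those with the largest rise and fall (of the cell type markers, those past the threshold and those that a value turns on). Alternatives were pseudocounts of 1 and 0.01, no filter and a filter at 1 FPKM, rescaling by median ratios, quantile normalization, a fit without the trend, voom on estimated reads, a replicate block and each liver left out.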

Additional observations from a re-analysis of the deposited data

How the results depend on the processing

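The number of genes past the threshold, 121, was 18 with a pseudocount of 1, 80 without the filter on low values, 68 when the filter was set to 1 FPKM and 78 to 552 with 1 liver left out. The number of the 10 pericentral genes past it was 0 under every alternative except without Brg1LKO replicate 1, where Tbx3 passed (range 0 to 1). By limma, 0 genes reached a Benjamini-Hochberg adjusted p under 0.05, against 247 at an unadjusted p under 0.05. That adjusted p was reached by 2 genes with the filter at 1 FPKM, by 269 without Brg1LKO replicate 1 and by 140 without Brg1LKO replicate 2, and by 0 genes under the other alternatives.

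With quantile normalization both Brg1LKO livers lay below both WT livers for 3 of the 10 genes, Glul, Lect2 and Gulo, against 29.4% of all genes in either direction, and with median-ratio rescaling for Glul alone, against 29.0%. The unadjusted limma p of Glul was 0.0210 with median-ratio rescaling, 0.0112 with quantile normalization and 0.0271 without WT replicate 1, but its log2 fold change stayed between -0.93 and -0.38, under 2-fold. The sign turned for Rhbg with median-ratio rescaling (0.01) and for Cyp2e1 with median-ratio rescaling (0.01) and voom (0.01), and the cause was not tested.

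With 1 liver left out, the log2 fold change ranged from -0.19 to 0.84 for Oat, -0.69 to 0.64 for Rhbg, -0.28 to 0.08 for Lect2, -0.75 to 0.11 for Axin2, -0.88 to 1.20 for Tbx3, -0.79 to 0.23 for Lgr5, -0.33 to 0.09 for Rgn and -0.50 to 0.04 for Gulo. It ranged from -0.03 to 0.23 for Lrp5, -0.45 to 0.28 for Ctnnb1, -0.53 to 0.03 for Tcf7l2, -0.74 to 0.05 for Rnf43, -0.59 to 0.15 for Znrf3, -0.29 to 1.06 for Gstm1, -0.25 to 0.10 for Dvl2 and -0.31 to 0.26 for Cyp2e1. For genes that kept their sign it ranged from -1.13 to -0.03 for Wnt2, -1.43 to -0.35 for Wnt9b, -0.78 to -0.25 for Rspo3, -1.01 to -0.42 for Notum, -0.73 to -0.11 for Fzd7, 0.02 to 0.71 for Lrp6, -0.92 to -0.27 for Tcf7, 0.28 to 0.88 for Frzb and -1.52 to -0.17 for Sox9. The lone liver of a genotype is there assumed to vary like the others.

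The labels give same-numbered livers nothing in common but the number. Over the genes tested, the correlation of their deviations from the group means was 0.031, which leaves out a shift common to all genes. Such a shift was present. The centred medians over all genes tested were -0.13 in WT and -0.16 in Brg1LKO replicate 1, and 0.15 in WT and 0.13 in Brg1LKO replicate 2. Whether it has a common source was not tested. With a replicate block 108 genes passed the threshold, none of them among the 10 (Glul log2 fold change -0.65, limma unadjusted p = 0.0298). With the filter at 1 FPKM no value was obtained for Axin2, Lgr5, Wnt9b, Tcf7l2, Rnf43, Znrf3, Slc22a3, Frzb, Fzd7, Tnks, Tcf7 and Sox9. Depth limits Axin2 and Lgr5 most, with 35 to 190 estimated reads in a liver.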
